A study of Mus musculus with 4 samples.

Results

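The hepatocyte cluster named HNKO 2 held 494 of the 5193 liver nuclei sequenced, which was 9.51% of all nuclei and 11.2% of the 4410 hepatocyte nuclei. Its members were the nuclei to which the authors gave that cluster name after clustering all nuclei by their expression. Since the expression of these same nuclei made the cluster, its differences from other nuclei are described here without a test. Of the 494 nuclei, 479 (97.0%) came from 1 knockout mouse, called mouse 344-KO by its hashtag, and 15 came from other mice (6 from 322-KO, 7 from 328-KO and 2 from 338-WT). They made up 56.6% of the 847 hepatocyte nuclei of mouse 344-KO. What belongs to the cluster and what belongs to that mouse therefore cannot be told apart.

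The livers came from 3 mice that lacked Nampt in hepatocytes (HNKO) and from 3 littermates called WT. HNKO mice carried Nampt fl/fl and Alb-Cre +/-, where the albumin promoter drives Cre in hepatocytes. The WT littermates carried the floxed alleles too, but no Cre. All 6 mice were female, were 8 to 12 weeks old when the purified control diet (PD) began, and ate it for 6 weeks. They came from a cohort in which some mice drank water with nicotinamide riboside, and which water these 6 mice had is not given in the sources used here. The nuclei of each mouse were marked with a hashtag antibody, sorted, pooled and sequenced as 2 pools with 3′ chemistry, so the counts below are of nuclear RNA.

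NAMPT is the rate-limiting enzyme of the salvage pathway by which most cells rebuild NAD from nicotinamide. Hepatocytes divide their work by position: periportal hepatocytes carry most urea synthesis, gluconeogenesis and amino acid catabolism, and pericentral hepatocytes carry glutamine synthesis, bile acid synthesis and much of drug oxidation. Hepatocytes also make cholesterol through the mevalonate pathway, whose genes are induced together by the factor SREBP2 when sterols are scarce, and answer oxidants through the factor NRF2.

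Levels are UMI sums over nuclei as CPM, the count per 1e+06 UMIs, scaled between sums by TMM, a method that sets most genes level. The sums were taken over the 479 HNKO 2 nuclei of mouse 344-KO (3336689 UMIs), the 285 HNKO 3 nuclei of the same mouse (1711919 UMIs), and all hepatocyte nuclei of each WT mouse (562 in 318-WT, 713 in 338-WT and 657 in 342-WT, with 3524497 to 4448104 UMIs). The 2 HNKO 2 nuclei of 338-WT are inside its sum. HNKO 2 nuclei had a median of 5341 UMIs and 2505 genes, against 4349 UMIs and 2159 genes in HNKO 3 and 3572 to 4162 UMIs and 1671 to 1779 genes in WT hepatocytes. The hashtag of the assigned mouse took a median of 46.3% of the hashtag counts in HNKO 2 nuclei and 49.2% in HNKO 3 nuclei, below the 69.4 to 76.4% of WT hepatocytes. All 1049 nuclei of mouse 344-KO had a median of 45.5%, so the low share was that of the whole mouse. Hepatocytes of 322-KO and 328-KO had 80.6% and 66.8%. The part of this share in the results was not tested. No barcode was shared by 2 nuclei in the table.

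Nampt itself gave 82.8 CPM in HNKO 2 nuclei, against 97.1, 117 and 110 CPM in 318-WT, 338-WT and 342-WT. The other HNKO mice gave 100 CPM (322-KO) and 160 CPM (328-KO), so the HNKO and WT mice overlapped. The deleted exons are not given in the sources used here, and UMIs from the rest of the gene and its introns would not show the deletion, so this level does not check the genotype.

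All 10 hepatocyte markers were detected in HNKO 2 nuclei. They summed to 10352 CPM, below the 29338 to 38904 CPM of WT mice and near the 11053 CPM of HNKO 3. Cps1, the entry enzyme of the urea cycle, made most of this difference, at 3216 CPM against 14719 to 20077 CPM in WT mice. Alb (albumin) stood at 2775 CPM against 6224 to 8283 CPM, and Hnf4a, a factor that maintains hepatocyte identity, at 221 CPM against 311 to 411 CPM. Markers of other cell types were near their WT hepatocyte levels or below in 4 of 5 lists. The 6 endothelial markers summed to 68.2 CPM (WT 72.6 to 81.8), the 7 stellate markers to 241 CPM (WT 209 to 254, Lrat at 0), the 6 Kupffer markers to 11.8 CPM (WT 6.39 to 11.9) and the 6 CD45+ markers to 32.0 CPM (WT 42.2 to 62.7). The 7 cholangiocyte markers summed to 510 CPM where HNKO 3 had 290 CPM and the WT mice 352 to 389 CPM. Pkhd1, a large ciliary protein of bile duct cells, gave 452 CPM of these and was at 334 to 360 CPM in WT hepatocytes, whereas the defining biliary genes Epcam and Krt19 were at 0.

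The 6 genes proposed as markers of the cluster set it apart from every WT mouse. They are Cib3 (a calcium-binding protein of the CIB family, chr8:72204335-72212837), Pls1 (plastin 1, an actin bundler of microvilli, chr9:95752642-95845311), Cdh1 (E-cadherin, the epithelial adhesion molecule, chr8:106603351-106670246), Rtn4 (reticulon 4, which shapes tubular endoplasmic reticulum, chr11:29692947-29744331), Osgin1 (an NRF2-responsive regulator of growth, chr8:119434124-119446256) and Hmgcs1 (cytosolic HMG-CoA synthase of the mevalonate pathway, chr13:119690379-119708260). Coordinates are on GRCm38. These genes were chosen with the cluster's values in view.

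Cib3 was at 196 CPM in HNKO 2 nuclei (95% counting interval 182 to 210) and at 5.85, 4.80 and 3.58 CPM in 318-WT, 338-WT and 342-WT. Pls1 was at 103 CPM (93.6 to 114) and at 2.27, 3.67 and 3.07 CPM in the WT mice. The 2 genes were thus nearly silent in WT hepatocytes and stood 33.5 and 28.1 times above the highest WT mouse in the cluster. Cdh1 reached 124 CPM (114 to 135) against 17.5, 17.0 and 11 CPM. Rtn4 reached 323 CPM (306 to 341) against 47.8, 44.1 and 26.6 CPM. Both stood about 7 times above the highest WT mouse, Cdh1 at 7.08 and Rtn4 at 6.77 times. Osgin1 was at 122 CPM (112 to 133) against 46.5, 20.3 and 14.3 CPM, and Hmgcs1 at 275 CPM (259 to 291) against 53.6, 72.9 and 52.7 CPM. Osgin1 had the smallest margin, 2.63 times the highest WT mouse, and also the widest spread among WT mice. These intervals, like all counting intervals here, cover counting error only and say nothing of the spread between mice.

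**Figure D1:**
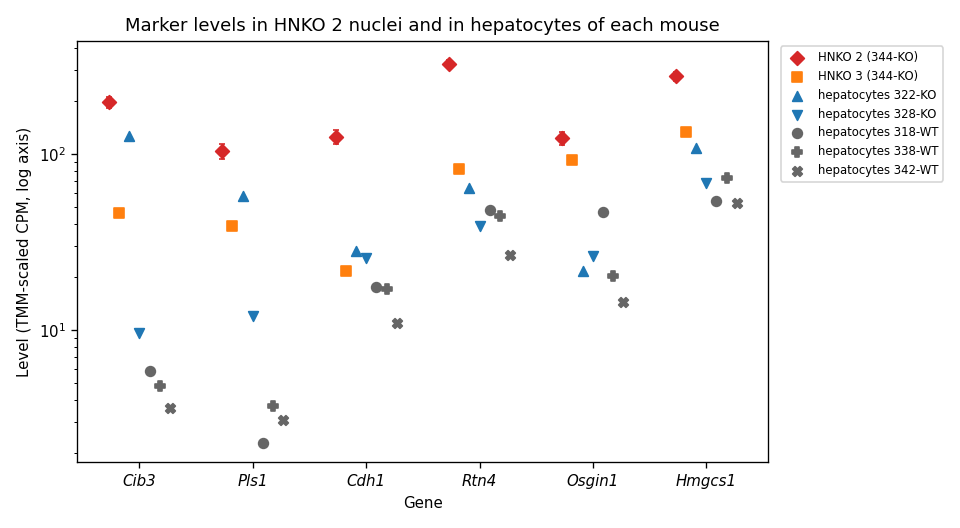
Level of each marker (TMM-scaled CPM, logarithmic axis) in the HNKO 2 and HNKO 3 nuclei of mouse 344-KO and in all hepatocyte nuclei of each other mouse, with 1 symbol per sum and the 95% counting interval on HNKO 2. HNKO 2 lies above every other sum for all 6 genes, and for Cib3 the nearest is mouse 322-KO at 125 CPM.

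The deeper nuclei of the cluster did not carry the markers alone. When its nuclei were divided at their median depth, Cib3 was at 195 CPM in the shallower nuclei and 202 CPM in the deeper ones, Rtn4 at 337 and 328 CPM, and Osgin1 at 159 and 113 CPM. Detection in single nuclei was compared after each nucleus was thinned to 1000 UMIs, which left out no nucleus. Cib3 then had a UMI in 19.2% of HNKO 2 nuclei (exact 95% interval 15.8 to 23.0%), in 7.02% of HNKO 3 nuclei and in 0.421 to 1.07% of WT hepatocytes. Rtn4 had one in 28.2% (24.2 to 32.4%), 9.82% and 3.65 to 4.98%. For both, WT hepatocytes lay far below the cluster at equal depth. Hepatocytes of 322-KO and 328-KO had Cib3 in 8.25% and 0.611% and Rtn4 in 5.05% and 1.83%. Endothelial nuclei, with a median of 3017 UMIs, showed Cib3 in 0.816%, Pls1 in 0.816% and Hmgcs1 in 1.63% of 245 nuclei, and Rtn4, which other cell types express too, in 11.4%. Without thinning, Cib3 had a UMI in 58.9% of HNKO 2 nuclei, 20.7% of HNKO 3 nuclei and 1.98 to 3.02% of WT hepatocytes. At full depth 96.9% of HNKO 2 nuclei held a UMI of at least 1 of the 6 markers and 64.5% held at least 3, against 80.7% and 21.4% in HNKO 3. In WT hepatocytes 40.3 to 51.2% held at least 1 and 1.22 to 2.52% at least 3. Hepatocytes of 322-KO had 72.3% and 19.8%, and those of 328-KO had 56.2% and 5.37%. The nuclei of 322-KO were deeper than those of HNKO 3, with medians of 5786 and 4349 UMIs. After thinning to 1000 UMIs, 27% of 322-KO hepatocytes held at least 1 marker and 3.57% at least 2. HNKO 3 then had 41.4% and 8.77%, so 322-KO lay below it at equal depth. HNKO 2 had 71.4% and 29.9%.

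**Figure D2:**
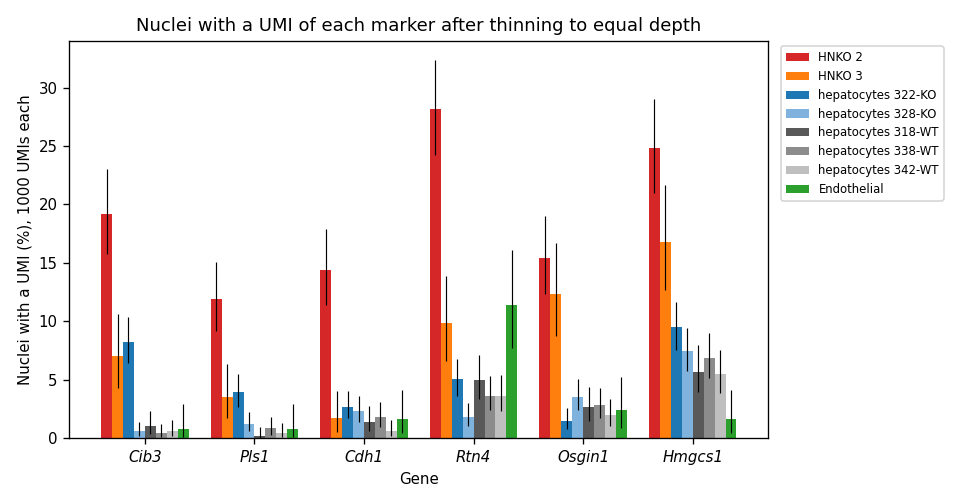
Percentage of nuclei with a UMI of each marker after every nucleus was thinned to 1000 UMIs, with exact 95% binomial intervals, for HNKO 2, HNKO 3, the hepatocytes of each other mouse and endothelial nuclei. Osgin1 is close in HNKO 2 and HNKO 3 (15.4% and 12.3%), whereas Cdh1 is at 14.4% in HNKO 2 and 1.75% in HNKO 3.

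Over all genes, 7476 had a mean of at least 10 CPM over the HNKO 2 sum and the 3 WT sums. In HNKO 2, 196 of them (2.62%) were at least 2 times the highest WT mouse and 414 (5.54%) were at or under 1/2 of the lowest WT mouse. The split depended on scaling. The 50 most abundant genes held 18% of UMIs in HNKO 2 and 23.4 to 25.2% in WT mice. With UMI totals alone as the scale, the median gene lay 0.46 higher on the log2 scale, and 717 genes were higher and 220 lower, so higher genes made up 76.5% of the calls in place of 32.1%. All 196 higher genes and 220 of the 414 lower genes passed under both scalings. In HNKO 3, 75 of the 196 higher genes (38.3%) and 268 of the 414 lower genes (64.7%) were past the same mark. In the Central HNKO 2 nuclei of mouse 344-KO these were 68 and 269. Many of the differences from WT mice were thus shared by other hepatocyte clusters of this mouse. Of the 196 higher genes, 74 had a WT mean under 10 CPM and entered the comparison through HNKO 2, and of the 414 lower genes 120 were under 10 CPM in HNKO 2 and entered through the WT mice. At the edge of the higher calls lay Thap2 (2.00 times) inside and Eps8l2 (1.99 times) outside, and at the edge of the lower calls Nnmt (0.50 times) inside and Mttp (0.50 times) outside.

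Beside the markers, the genes furthest above every WT mouse had varied roles, among those with a mean of at least 20 CPM over the HNKO 2 and WT sums. Under that minimum, Osbpl3 stood 18.9 times above the highest WT mouse. Kifc3, a minus-end kinesin, was at 89.9 CPM against 3.84 to 7.47 CPM in WT mice. Nrg1, the ligand of ERBB receptors, was at 290 CPM against 23.1, 24.6 and 25.6 CPM. WT mice were close together for Nrg1 and the cluster stood 11.3 times above the highest of them. Mup20, a major urinary protein, was at 109 CPM against 8.48 to 14.3 CPM, though its reads can be shared with near-identical family members and its level is uncertain. The surface protease gene Mmp15, the copine Cpne8, the magnesium transporter Slc41a2, the adhesion molecule Sdk1 and the long noncoding RNA Pvt1, which lies next to Myc, stood 6.13, 5.21, 4.49, 4.00 and 5.59 times above the highest WT mouse. Fdft1, squalene synthase, stood 4.50 times above it. Among them were 2 noncoding transcripts whose models hold microRNAs. AC157910.3, whose gene model holds Mir122, the main microRNA of hepatocytes, was at 969 CPM against 135, 204 and 74.7 CPM in WT mice. Lncppara, whose model holds Mirlet7c-2 and Mirlet7b, was at 140 CPM against 33.1 to 36.1 CPM. Both were also high in HNKO 3, at 990 and 105 CPM. Of the genes in this paragraph, Mup20, Pvt1, Slc41a2 and Sdk1 were higher in all hepatocytes of 322-KO, at 127, 119, 94.7 and 224 CPM. HNKO 2 had 109, 112, 68.5 and 169 CPM of them, and 328-KO had 7.58, 34.5, 16.6 and 41.2 CPM. The others were lower in 322-KO than in HNKO 2.

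The genes furthest below every WT mouse were close to undetected or far reduced in the cluster. Fbp2, a fructose bisphosphatase, gave 1 UMI in HNKO 2 (0.25 CPM, interval 0.01 to 1.37) against 45.2, 43.2 and 37.6 CPM in WT mice. The sulfotransferase Sult3a1 gave 2 UMIs against 32.7 to 66.6 CPM, and Cyp2b10, a cytochrome induced through the receptor CAR, 5 UMIs (1.23 CPM) against 21.8 to 36.1 CPM. Both belong to families of similar genes. Trp53inp1, a p53-inducible stress protein, was at 119 CPM against 1559 to 1739 CPM. This was a large difference in an abundant gene, and HNKO 3 gave a similar value of 101.3 CPM. Angptl4, an inhibitor of lipoprotein lipase, Ppp1r3g, a glycogen-targeting subunit, Fbf1, a centriole protein, and Tmem132b were at 2.71, 3.20, 7.88 and 1.48 CPM, with WT mice at 45.0 to 51.7, 44.6 to 62.7, 152 to 162 and 22.9 to 48.1 CPM. The noncoding AC102159.1 was at 1.72 CPM against 44.3 to 47.6 CPM and, unlike the others, was kept in HNKO 3 (32.8 CPM) and in the Central HNKO 2 nuclei of the same mouse (96.7 CPM).

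Genes of cholesterol synthesis were higher as a group. Of 26 listed genes, 23 passed the filter, 10 were past the 2-fold mark upwards and 0 downwards, and the median log2 ratio to the WT mean was 1.19, against -0.05 over all genes tested. Members along the pathway were among the 10: Hmgcs1, Pmvk, Idi1 and Fdps, which carry acetyl units to farnesyl diphosphate, Fdft1, which makes squalene from it, Lss, Msmo1 and Nsdhl, which act between squalene and cholesterol, and Acat2, which supplies acetoacetyl-CoA. Fdft1 was at 189 CPM against 21.1, 42.1 and 24.6 CPM in WT mice. Idi1 was at 52.2 CPM against 10.4, 13.6 and 11.5 CPM, and Lss at 51.5 CPM against 8.77, 13.6 and 18.7 CPM. The WT mice lay close together for Idi1 and differed about as much as the 2-fold mark for Fdft1 and Lss, and the cluster lay above all of them. Stard4, a sterol carrier, was not part of this, at 93.4 CPM against 149 to 203 CPM in WT mice.

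The promoters of Hmgcs1 and Idi1 are shown as examples from the group. Each window runs from 250 bases before to 50 bases after the RefSeq start on GRCm38.p6, on the plus strand. Capitals mark CCAAT, the box bound by NF-Y, a partner of SREBP2, in either direction, and in Hmgcs1 also CACCCCAC, a sterol regulatory element, which lies 136 bases before the start and does not overlap a CCAAT box.
Hmgcs1, chr13:119690101-119690400: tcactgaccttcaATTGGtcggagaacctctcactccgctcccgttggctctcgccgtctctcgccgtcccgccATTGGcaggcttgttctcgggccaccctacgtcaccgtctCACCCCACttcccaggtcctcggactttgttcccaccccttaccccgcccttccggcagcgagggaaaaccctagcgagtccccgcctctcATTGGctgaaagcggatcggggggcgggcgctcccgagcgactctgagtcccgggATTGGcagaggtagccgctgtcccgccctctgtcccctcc
Idi1, chr13:8885356-8885655: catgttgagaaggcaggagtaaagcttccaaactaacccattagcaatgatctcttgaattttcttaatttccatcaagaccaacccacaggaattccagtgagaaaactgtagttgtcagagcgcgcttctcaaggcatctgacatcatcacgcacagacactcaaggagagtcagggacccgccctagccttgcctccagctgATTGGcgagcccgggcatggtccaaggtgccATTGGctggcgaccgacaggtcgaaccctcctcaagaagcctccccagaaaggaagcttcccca
Of the 26 listed cholesterol genes, 18 had a promoter window in the table, and 16 of these (88.9%) held CCAAT on either strand, against 41.1% of 27025 genes with a window. Among the 7 with a window that were past the mark upwards, 6 (85.7%) held CCAAT, near the share of the whole list. The box thus did not set apart the members that were higher in HNKO 2. CACCCCAC was found in 2 of the 18 (Hmgcs1 and Acat2), against 3.30% of all genes. Both are matches of letters and not mapped binding sites.

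NRF2 targets were higher too. Of 26 listed, 16 passed the filter, 5 were past the 2-fold mark upwards and 1 downwards (10 and 0 with UMI totals), with a median log2 ratio of 0.93. Nfe2l2, which codes for NRF2 itself, was at 321 CPM against 134, 135 and 140 CPM in WT mice. Gclm, the modifier subunit of the enzyme that limits glutathione synthesis, was at 135 CPM against 52.9, 47.5 and 30.2 CPM. Ugdh, which makes UDP-glucuronate, was at 92.4 CPM against 26.6 to 41.6 CPM, and Tkt, transketolase, at 56.7 CPM against 21.5 to 22.1 CPM. The member past the mark downwards, with TMM but not with UMI totals, was Abcc2, a canalicular export pump, at 1820 CPM against 3974 to 4116 CPM. Me1, also on the list, was below every WT mouse too, at 258 CPM against 510 to 867 CPM, and fell just short of the mark. With TMM, 14 of the 16 log2 ratios were above 0. Nqo1, Srxn1 and Hmox1, often read as NRF2 targets, stayed under the filter at 5.91, 6.90 and 5.17 CPM, against at most 2.92 CPM in a WT mouse. The Gclm promoter is shown with the antioxidant response element TGACNNNGC in capitals, here on the minus strand. The leftmost capital lies 134 bases before the start.
Gclm, chr3:122245307-122245606: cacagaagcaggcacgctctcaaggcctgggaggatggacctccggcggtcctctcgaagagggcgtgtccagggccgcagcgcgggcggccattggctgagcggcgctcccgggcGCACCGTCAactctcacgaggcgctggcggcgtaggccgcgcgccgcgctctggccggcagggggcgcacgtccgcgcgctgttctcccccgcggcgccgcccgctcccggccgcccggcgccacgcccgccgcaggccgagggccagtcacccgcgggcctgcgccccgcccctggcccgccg
This motif, on either strand, was found in 11 of the 22 NRF2 targets with a window (50%), against 14% of all genes. Among the 5 past the mark upwards, 3 held it.

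Junction, membrane-shape and duct genes gave a mixed picture. Of 25 junction and cytoskeleton genes, 19 passed the filter, with 5 past the 2-fold mark upwards and 1 downwards. Beside Cdh1 and Pls1, these were Ocln (occludin, 208 CPM against 82.4 to 101.4 CPM), F11r (a junctional adhesion molecule, 198 CPM against 48.6 to 71.5 CPM) and Cldn1 (claudin 1, 30.1 CPM against 4.86 to 13 CPM). Actg1, a cytoplasmic actin, was lower at 26.4 CPM against 115 to 139 CPM. In the reticulon list, Rtn4 was past the mark upwards and Atl2 and Reep3 downwards, and its closest relative measured, Rtn3, was at 322 CPM against 272 to 290 CPM. Of 20 ductular genes only 4 passed the filter. Bicc1, an RNA-binding protein of ducts, was past the mark at 25.1 CPM against 3.58 to 8.76 CPM, Spp1 (osteopontin) was at 30.1 CPM against 8.18 to 15.8 CPM, and Krt7 gave 0.25 CPM.

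Both zonal lists were lower. Of 19 periportal genes past the filter, 10 were at or under 1/2 of the lowest WT mouse and 0 were past the mark upwards, with a median log2 ratio of -1.54. Of 15 pericentral genes, 8 were lower and 0 higher, with a median of -1.60. Pck1, the gluconeogenic enzyme, was at 422 CPM against 3483 to 3895 CPM in WT mice, and Sds, serine dehydratase, at 151 CPM against 494 to 991 CPM. On the pericentral side, Glul (glutamine synthetase) was at 14.3 CPM against 138 to 145 CPM, Slc1a2 (a glutamate transporter) at 18.7 CPM against 224 to 352 CPM, and Cyp2e1 at 146 CPM against 810 to 1304 CPM. When the WT nuclei were limited to the periportal clusters, the periportal median was -1.92 and the pericentral median 0.12, and Lgr5, Slc1a2 and Cyp2c38 changed direction. Cyp2f2, a periportal cytochrome, lay inside the WT range at 119 CPM against 104 to 173 CPM.

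**Figure D3:**
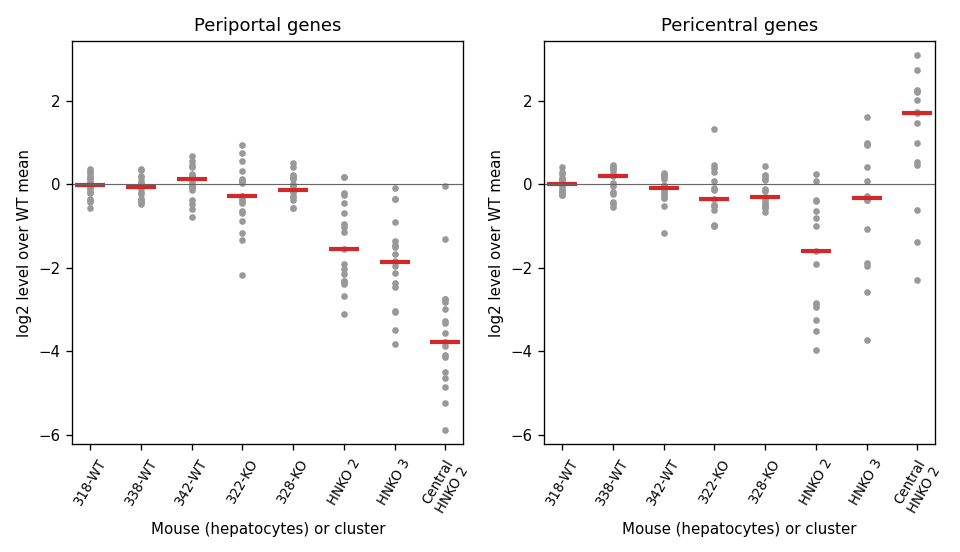
Log2 level of each periportal (left, 19 genes) and pericentral gene (right, 15 genes) over the WT mean, with 0.5 CPM added, in the hepatocytes of 5 mice and in 3 clusters of mouse 344-KO, with the median as a red bar. HNKO 2 has a median of -1.54 and -1.60, HNKO 3 of -1.86 and -0.33, and Central HNKO 2 of -3.77 and 1.70.

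Lists of liver metabolism are read against the 5.54% of all genes that were lower and the 2.62% that were higher. Of 19 urea cycle and amino acid genes past the filter, 13 were lower and 0 higher, with a median of -1.78. With UMI totals 7 of them stayed past the mark. Bhmt, which remethylates homocysteine, was at 284 CPM against 1110 to 1453 CPM, and Tat, tyrosine aminotransferase, at 399 CPM against 1606 to 2731 CPM. Otc was less reduced, at 302 CPM against 306 to 467 CPM. Of 23 glucose genes, 7 were lower and 1 higher. G6pc, which releases glucose, was at 253 CPM against 1437 to 2268 CPM, Gys2, liver glycogen synthase, at 382 CPM against 1665 to 1841 CPM, and Igfbp1, which FOXO factors induce, at 45.1 CPM against 375 to 661 CPM. All 7 remained past the mark with UMI totals. HNKO 3 was low as well, with Tat at 467 CPM, G6pc at 215 CPM and Igfbp1 at 67.1 CPM. Against HNKO 3, 1 of 19 urea cycle and amino acid genes was higher in HNKO 2 and 1 lower. Of 22 glucose genes, 0 were higher and 1 lower in that comparison. Of 22 genes of fatty acid oxidation and PPAR-alpha, 6 were lower (among them Cpt1a at 246 CPM against 575 to 865 CPM), and of 20 bile acid genes 6 were lower. Cyp7a1, the rate-limiting enzyme of bile acid synthesis, was at 60.6 CPM against 194 to 581 CPM. Of 18 fatty acid synthesis genes, 3 were lower and 0 higher. With UMI totals, 4 of the oxidation, 5 of the bile acid and 2 of the synthesis genes were lower. Insig2, which holds SREBP proteins in the endoplasmic reticulum, was at 94.1 CPM against 1053 to 1487 CPM, while Insig1, at 191 CPM, equalled the highest WT mouse (191 CPM).

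Among hepatocyte transcription factors, 2 of 21 were higher and 3 lower (3 and 1 with UMI totals, where only Nr1i3 stayed lower). Cebpa was at 36.5 CPM against 11.1 to 13.6 CPM and Foxa2 at 28.8 CPM against 6.65 to 12.4 CPM. HNKO 3 had similar levels of both, at 31.8 and 35.7 CPM. Of 21 factors, 0 were higher in HNKO 2 than in HNKO 3 and 1 (Nr1i3) was lower. Nr1i3 (the receptor CAR) was at 53.5 CPM against 169 to 276 CPM, Nr1i2 (the receptor PXR) at 126 CPM against 323 to 467 CPM, and Creb3l3 was the third. In the stress, NAD and clock lists the counts were small, and a single gene in lists of this size is near the share over all genes. Of 9 genes of the integrated stress response past the filter, Ddit3 (CHOP) was higher at 23.6 CPM against 6.50 to 8.44 CPM and Gdf15 lower at 21.2 CPM against 56.5 to 73.4 CPM (3 higher and 0 lower with UMI totals). In HNKO 3 these 2 genes were at 25.6 and 24.6 CPM. Of 10 p53 targets, 0 were higher and 2 lower with TMM, Trp53inp1 and Gdf15 (1 and 1 with UMI totals). Of 17 genes of NAD synthesis, 0 were higher and 2 lower with TMM (1 higher and 0 lower with UMI totals), the tryptophan-degrading Tdo2 (443 CPM against 1162 to 2390 CPM) and Kmo (105 CPM against 235 to 315 CPM). Of 12 genes of NAD consumption, only Nnmt was past the mark, lower with TMM (1 higher and 0 lower with UMI totals). Nmrk1, the kinase that takes in nicotinamide riboside, was at 77.6 CPM against 70.5 to 78.0 CPM. With TMM, Per1 alone of 17 clock genes was past the mark (18.7 CPM against 44.8 to 79.5 CPM), and Lifr and Saa4 were lower among 19 acute phase genes. With UMI totals 0 genes of either list were past the mark. Ccn1 was higher among 11 YAP-TEAD genes, and 0 of 2 cell cycle genes and 0 of 12 mitochondrially encoded genes past the filter were past the mark.

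**Figure D4:**
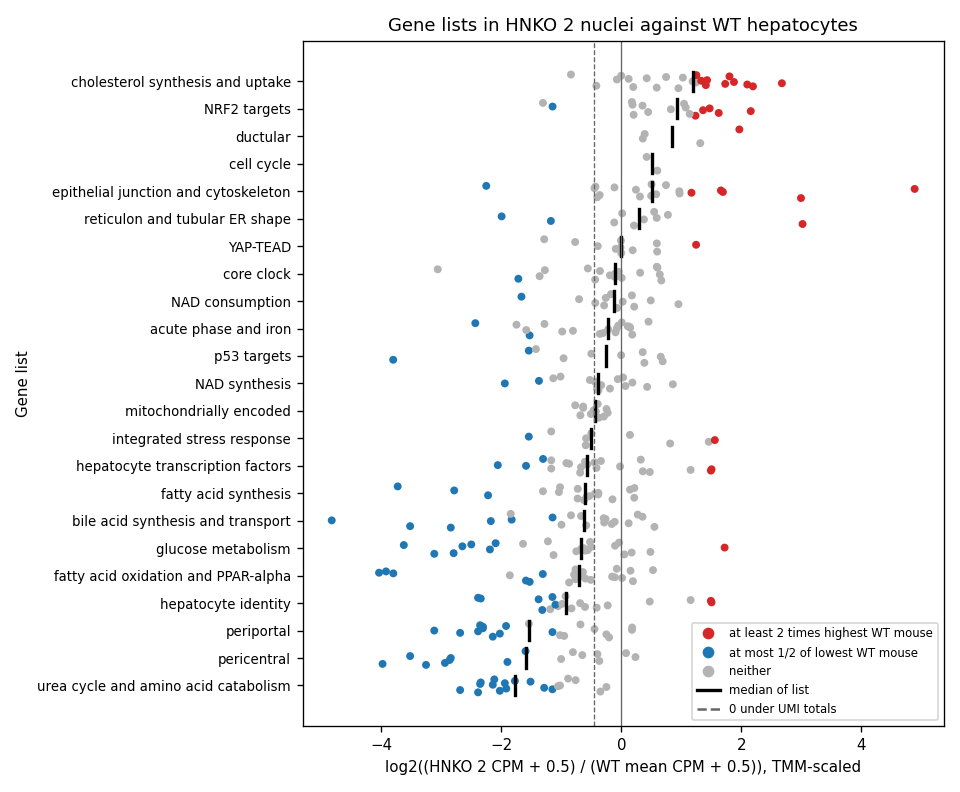
Log2 ratio of HNKO 2 to the WT mean (TMM-scaled, 0.5 CPM added) for each gene past the filter in 23 lists, with the list median as a black bar; red genes are at least 2 times the highest WT mouse and blue genes at or under 1/2 of the lowest. Cholesterol genes lie furthest to the right (median 1.19) and urea cycle and amino acid genes furthest to the left (-1.78); the dashed line is where 0 would lie with UMI totals as the scale.

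HNKO 3 was the most similar of the other 20 clusters, with a Pearson r of 0.97 over the log2 levels of 8505 genes, as a description. The next were Periportal 1 (0.94) and HNKO 1 (0.94). HNKO 2 and HNKO 3 come from the same mouse, so their difference was read within 1 liver, with counting intervals and no replicate. Of 7653 genes with a mean of at least 10 CPM over both, 194 (2.53%) were at least 2 times higher in HNKO 2 and 91 (1.19%) at or under 1/2. Among the named genes with a mean of at least 20 CPM over both, the ratio was largest for Chrm3, the muscarinic receptor M3. It was at 70.2 CPM in HNKO 2 and 3.38 CPM in HNKO 3 (ratio 20.8, counting interval 9.96 to 52.2). WT mice lay between, at 45.5, 18.1 and 14.1 CPM. Cryl1, an enzyme of the glucuronate pathway, was at 121 and 7.72 CPM (ratio 15.7, 9.57 to 27.7), while WT mice had 120 to 187 CPM, so the low value was that of HNKO 3. Osbpl3, an oxysterol-binding relative, was at 58.9 and 3.86 CPM (ratio 15.3, 7.62 to 35.7), and here the WT mice were low as well, at 1.28 to 3.11 CPM. Nrg1 differed by a ratio of 8.01 (6.34 to 10.3), Mup20, uncertain as above, by 5.97, Cdh1 by 5.72 (4.21 to 7.94), Grip1, a synaptic scaffold, by 5.35, and the phosphatase Ptpre by 5.01. Of the 6 markers, 5 were past the mark against HNKO 3 and Osgin1 was not, with a ratio of 1.33 (1.13 to 1.58).

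Pericentral genes were lower in HNKO 2 than in HNKO 3. Of 16 pericentral genes past the filter, 9 were lower (Glul, Cyp2e1, Cyp1a2, Lect2, Tbx3, Lgr5, Gulo, Cyp7a1 and Rgn) and 0 higher, while of 17 periportal genes 5 were higher (Cyp2f2, Sds, Hsd17b13, Ctsc and Etnppl) and 0 lower. Lgr5, a WNT-responsive receptor, was at 15.8 CPM in HNKO 2 and 97.5 CPM in HNKO 3, which was 6.18 times higher (4.64 to 8.32). Cyp2e1 was 5.91 times higher in HNKO 3 (5.38 to 6.49). Tbx3, a pericentral factor, was at 8.87 and 46.3 CPM, against 4.22 to 9.89 CPM in WT mice. Here HNKO 2 was inside the WT range and HNKO 3 above it. The other genes furthest down, among those with a mean of at least 20 CPM, were Sult2a8, Cyp3a41a, Cyp2c54, Sult2a5 and Cyp2c38. They were 7.38, 5.30, 4.61, 4.44 and 4.12 times higher in HNKO 3. These genes belong to families of close paralogs and are uncertain one by one. In the cholesterol list 9 of 24 genes were higher in HNKO 2 and 0 lower. Sqle, squalene epoxidase, differed by a ratio of 3.76 (2.57 to 5.66) and Idi1 by 3.09 (2.16 to 4.56). Of 18 NRF2 targets 0 were past the mark in either direction. Of 12 mitochondrially encoded genes 8 were higher in HNKO 2, and these genes took 0.22% of UMIs in HNKO 2, 0.09% in HNKO 3 and 0.19 to 0.25% in WT hepatocytes. This share can move with how clean the nuclei were, and its part in the comparison was not tested.

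The other HNKO mice allowed a test that did not use mouse 344-KO. Their hepatocyte sums (812 nuclei in 322-KO and 819 in 328-KO) were compared with the 3 WT mice, the same WT mice as above, by the quasi-likelihood test of edgeR with Benjamini-Hochberg adjustment. Of 11832 genes tested, 0 (0%) passed an adjusted p of 0.05. At an unadjusted p under 0.05 there were 555 of the 11832 genes. This share is below the 0.05 that such a cut passes when nothing differs, so it is no excess. DESeq2 called 4. The 2 mice differed from each other. Cib3 was at 125 CPM in 322-KO and 9.57 CPM in 328-KO (log2 fold change 3.81, SE 0.95, edgeR adjusted p 0.975), and both lay above the WT range of 3.58 to 5.85 CPM. Pls1 was at 57.4 and 11.9 CPM (3.48, SE 0.67, edgeR adjusted p 0.975), also above every WT mouse. Cdh1 was at 28.0 and 25.6 CPM (0.81, SE 0.24, edgeR adjusted p 0.975), above the 17.5 CPM of the highest WT mouse in both. Nrg1 was at 275 CPM in 322-KO, close to the 290 CPM of HNKO 2, and at 30.9 CPM in 328-KO. Rtn4 was at 64.0 and 38.6 CPM, Osgin1 at 21.5 and 26.4 CPM and Hmgcs1 at 107 and 68.4 CPM, so for Rtn4 and Hmgcs1 only 322-KO lay above the WT mice and for Osgin1 neither did. Fdft1 was at 47.5 and 61.2 CPM and Pck1 at 2856 and 3234 CPM. Ntrk2, the BDNF receptor, was at 502 CPM in 322-KO and 118 CPM in 328-KO, and at 108 CPM in HNKO 2, where WT mice had 35.4 to 85.2 CPM. Sord, sorbitol dehydrogenase, was at 237 and 425 CPM in these mice and at 540 CPM in HNKO 2, against 510.5 to 602 CPM in the WT mice.

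The count of the test rested on 1 mouse. Without 328-KO, 102 genes were higher and 7 lower, and Cib3, Pls1, Kifc3, Nrg1, Osbpl3, Mup20, Pvt1, Cpne8, Slc41a2, Sdk1 and Ntrk2 passed the adjusted p. In that fit 322-KO stands alone and is assumed to vary like the WT mice. Without 322-KO, 0 genes passed.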

How the data were processed

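Single-nucleus RNA-Seq was made from liver of 3 WT and 3 HNKO mice. Per the labels and methods, the authors mapped reads with Alevin to GRCm38 with GENCODE M25 (FASTQ files by Cell Ranger 5.0.1), kept nuclei with a single hashtag, and clustered SCTransform values in Seurat. The authors deposited estimated counts per gene and nucleus, made by Alevin from spliced and unspliced RNA together, of which 10.1% of nonzero values were not whole. These were summed per set of nuclei and rounded. The deposited hashtag counts gave the share of each nucleus's own tag. The SCTransform values, treated as a score made by the authors, served as an alternative. The authors kept single-hashtag nuclei; doublets within a mouse were not sought here. Of 22210 rows named by Ensembl ID, 22004 matched a symbol.

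Sums were scaled by TMM (edgeR 4.0.16), and ratios were taken after adding 0.5 CPM. A gene was past the mark at 2 times the highest or 1/2 of the lowest WT mouse, among genes with a mean of at least 10 CPM. Intervals are exact 95% Poisson or binomial and cover counting error only. edgeR tested the other HNKO mice against WT mice, with DESeq2 1.42.0 as an alternative. The p-values weigh the difference between the groups against the spread between these few mice. Both steps were run on simulated data with known changes. For the fold mark the draws held counting error alone. They had no spread between mice and no shift between scalings, so they do not check the mark against either. Gene positions are from GENCODE M21, also on GRCm38, and promoters from RefSeq (GRCm38.p6).

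Genes named were Nampt, the 6 markers, Ntrk2 and Sord, the 15 highest and 10 lowest against WT mice and the 8 highest and 8 lowest against HNKO 3 (past the mark, mean of at least 20 CPM), and up to 4 of each list. Other list members, and the genes at the edges of the mark, were chosen after their values were seen. The markers, lists and rule were chosen with earlier results of these data known. Gene models named Gm or Rik, pseudogenes and mitochondrial rRNA were counted but not named. Genes that overlap models on the other strand (Rtn4, Hmgcs1, Fdft1 and Kifc3 among them) can share reads with them where counting ignored strand, which is not given in the sources used here. Some genes that the rule names are not reported here.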

Additional observations from a re-analysis of the deposited data

How the results depend on the processing

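Against WT mice, 196 genes were higher and 414 lower. With UMI totals these were 717 and 220, with SCTransform values 1109 and 212, and with means over nuclei 710 and 204; the cause was not tested. With no filter they were 2329 and 1779, at 1.5 times 607 and 874, at 3 times 53 and 197, and with a mean of at least 30 CPM 66 were higher. Leaving out 1 WT mouse gave 286 to 301 higher and 481 to 513 lower genes, where fewer mice bound the range. With the periportal clusters as the only WT nuclei, Lgr5, Slc1a2 and Cyp2c38 changed sign to log2 ratios of 2.86, 0.78 and 0.66. Against HNKO 3, 194 were higher and 91 lower: 4969 and 2182 with no filter, 67 and 40 at 30 CPM, 656 and 382 at 1.5 times, and 56 and 32 at 3 times, with 377 higher by SCTransform values and 155 lower by means over nuclei. For the other HNKO mice against WT mice, DESeq2 called 3 higher and 1 lower, and leaving out 1 mouse gave 0 to 102 higher and 0 to 7 lower.

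The medians of NAD synthesis, NAD consumption, clock, acute phase, p53, YAP-TEAD and mitochondrially encoded genes changed sign with UMI totals, and that of the integrated stress response with SCTransform values, so no direction is read from them. Cholesterol, NRF2 and junction lists stayed above 0, and both zonal lists, urea cycle, glucose, bile acid and both fatty acid lists below 0, under every other scaling. No paired analysis was possible because both pools held all 6 mice and the nuclei carry no pool label; for the same reason the fits within each pool were not run.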

Other observations

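The 15 HNKO 2 nuclei of other mice, all but 2 of them from HNKO mice, were too few to compare by mouse. As CPM of their own UMI total they held Cdh1 at 246 (20 UMIs), Hmgcs1 at 357 (29 UMIs) and Pls1 at 160 (13 UMIs), against 151, 334 and 126 in the 479 nuclei of 344-KO on the same scale. Cib3 was at 73.8 (6 UMIs) against 238, and Rtn4 at 111 (9 UMIs) against 394. Their own hashtag took a median of 68.0% of hashtag counts, above the 46.3% of the 479 nuclei and the 45.5% of all nuclei of 344-KO. Across the 21 clusters, Cib3 was highest in HNKO 2 (204 CPM, scaled over clusters) and next in HNKO 1 (143 CPM). Rtn4 was at 337 CPM in HNKO 2 and higher in Cholangiocyte 1 (926 CPM), CD45+ 1 (458 CPM), Cholangiocyte 2 (386 CPM) and Kupffer nuclei (348 CPM). Cdh1 was at 134 CPM in HNKO 2 and higher in Cholangiocyte 2 (536 CPM) and Cholangiocyte 1 (311 CPM).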
